A study of Mus musculus with 5 samples.

Results

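The brush-border disaccharidases are the 4 genes Lct, Sis, Mgam and Treh, found by symbol among the 27998 genes of the count tables. All 4 passed the filter on low counts in every comparison. They were measured by droplet single-cell RNA sequencing of the epithelium of the ileum, the distal small intestine, in the C57BL/6 strain at an age of 8 to 12 weeks. Surgery was either small bowel resection, in which a length of the small intestine is removed, or a sham operation, and the study asked how the remaining epithelium adapts. There were 3 sham and 2 resection libraries. The labels give no transgene, drug or time after surgery, and do not say whether a library came from 1 mouse or several, so p-values describe the spread between libraries.

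Disaccharidases are enzymes anchored in the microvilli of absorptive enterocytes, where they split sugars of 2 units, and short chains of glucose, into single sugars that transporters carry into the cell. Lct encodes lactase, which splits the milk sugar lactose and declines after weaning in most mammals. Sis encodes sucrase-isomaltase, which splits sucrose and the branch points of starch. Mgam encodes maltase-glucoamylase, which releases glucose from the ends of starch fragments. Treh encodes trehalase, which splits the fungal and insect sugar trehalose. These enzymes are known to be more abundant in the proximal small intestine than in the ileum, and new enterocytes leave the crypt, where they are born, and climb the villus to its tip as they mature.

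The genes lie on 4 chromosomes of the mouse build GRCm38. Lct (ENSMUSG00000026354) occupies chr1:128284756-128328318 on the minus strand, Sis (ENSMUSG00000027790) chr3:72888557-72967863 on the minus strand, Mgam (ENSMUSG00000068587) chr6:40628831-40769123 on the plus strand and Treh (ENSMUSG00000032098) chr9:44673233-44686305 on the plus strand. Phldb1 overlaps Treh on the opposite strand, and whether the counting used strand is not given in the sources used here. In enterocyte-like cells Phldb1 itself was at only 1.50 to 5.16 CPM. CPM are the UMIs of a gene for each 1000000 UMIs summed over the same cells. The other 3 genes overlap no annotated gene.

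The promoters are shown of Lct, the member that differed most with surgery, and of Sis, the most abundant member in enterocyte-like cells of 4 of the 5 libraries. Each run is the 250 bases before the annotated start, from the RefSeq table on GRCm38.p6, 5′ to 3′ on the gene's strand, and covers chr1:128328319-128328568 for Lct and chr3:72967864-72968113 for Sis. Capitals mark matches, on either strand, to TTTAT or TTTAC (the core bound by CDX factors of intestinal identity) or to GATAA (the GATA core).
Lct: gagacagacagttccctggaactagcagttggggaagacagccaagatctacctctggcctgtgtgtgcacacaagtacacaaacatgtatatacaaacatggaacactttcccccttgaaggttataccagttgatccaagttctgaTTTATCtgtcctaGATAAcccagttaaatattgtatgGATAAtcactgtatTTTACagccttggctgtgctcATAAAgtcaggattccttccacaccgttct
Sis: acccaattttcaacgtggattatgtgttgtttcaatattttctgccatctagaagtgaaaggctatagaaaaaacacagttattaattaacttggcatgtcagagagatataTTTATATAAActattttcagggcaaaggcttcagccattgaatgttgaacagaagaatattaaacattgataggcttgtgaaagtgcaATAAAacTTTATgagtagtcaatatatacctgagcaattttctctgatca

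The Lct window held 3 matches of the GATA core, beginning at -101, -89 and -65 from the start, and the Sis window held none. The first CDX core, ending in T, was matched 2 times in Lct and 4 times in Sis, and the other, ending in C, 1 time in Lct, at -51, and not in Sis. In Lct the CDX match at -102 overlaps the GATA match at -101 on the other strand. Mgam had 2 matches of the first CDX core and 2 of the GATA core, and Treh matched none of the 3 motifs. Among 32851 mouse promoter windows of this length, 37.3% held the first CDX core, 28.3% the other and 22.6% the GATA core. A match describes letters in this window and not a bound site.

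The 5 libraries held 19404 cells with library medians between 4541 and 6240 unique molecular identifiers (UMIs, each marking 1 captured transcript) per cell. After filtering, 18235 cells formed 20 clusters, which were named "-like" from marker genes, without the 4 disaccharidases or genes of hexose transport among the clustering genes. Enterocyte-like cells numbered 692, 1867 and 1298 in sham 1 to 3 and 2336 and 3948 in resection 1 and 2. A cluster of 247 cells that met no naming rule stayed out of the classes, and 197 cell barcodes occurred in more than 1 library. The libraries fell into 2 sets, sham 1 with resection 1 (median mitochondrial share 13.7% and 11.7%) and sham 2, sham 3 and resection 2 (7.24% to 9.19%), which the labels do not explain. Most of the 9 enterocyte-like clusters came from 1 library each: cluster 0 from sham 2, 13 from sham 1, 10 from sham 3, 1 and 2 from resection 2, and 7, 8 and 19 from resection 1. Enterocyte-like cells are therefore compared below as whole classes, held by different clusters in different libraries. The labelled tissue was checked with 3 ileal genes (Fabp6, Slc10a2 and Fgf15), whose summed level in enterocyte-like cells was 26258 to 44390 CPM in sham and 8274 to 21713 in resection libraries. The sum is nearly all Fabp6 (25739 to 43872 CPM in sham, 7656 and 21369 in resection libraries). Slc10a2 overlapped between the groups, and Fgf15 was at 10.1 to 43.9 CPM in sham and at 97.0 and 53.5 in resection libraries, the other way. In the same cells the summed T cell markers were at 25.1 to 69.1 CPM, and among 5 B or plasma cell markers Ms4a1, and among 6 stromal or endothelial markers Dcn and Kdr, were at 0 in every library. Summed Paneth markers were far higher, at 1302 to 6074 CPM in sham and 2404 and 2433 in resection libraries. Summed goblet markers were at 596 to 1251 CPM in sham and 553 and 744 in resection libraries.

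Among the epithelial classes, the levels of Sis, Mgam and Treh were highest in enterocyte-like cells in every library, and so was Lct except in sham 1. Levels are given here as CPM of the UMIs summed over a class in a library, without further scaling. Because the chemistry reads the 3′ end of each transcript, counts were not divided by gene length. In enterocyte-like cells Sis stood at 1039, 1950 and 1160 CPM in the sham libraries and at 2771 and 2365 in the resection libraries. Mgam stood at 1382, 1214 and 910 CPM in sham and 2359 and 1595 in resection libraries. Sis and Mgam were thus near each other, and their order differed between libraries, Mgam being the higher only in sham 1.

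Lct and Treh were the minor members of the family in sham ileum. Lct stood at 80.2, 78.2 and 30.2 CPM in enterocyte-like cells of sham libraries and at 782 and 282 in resection libraries. Treh stood at 73.8, 110 and 50.4 CPM in sham and at 254 and 140 in resection libraries. Their sham ranges overlapped each other, and in both resection libraries Lct lay above Treh.

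**Figure D1:**
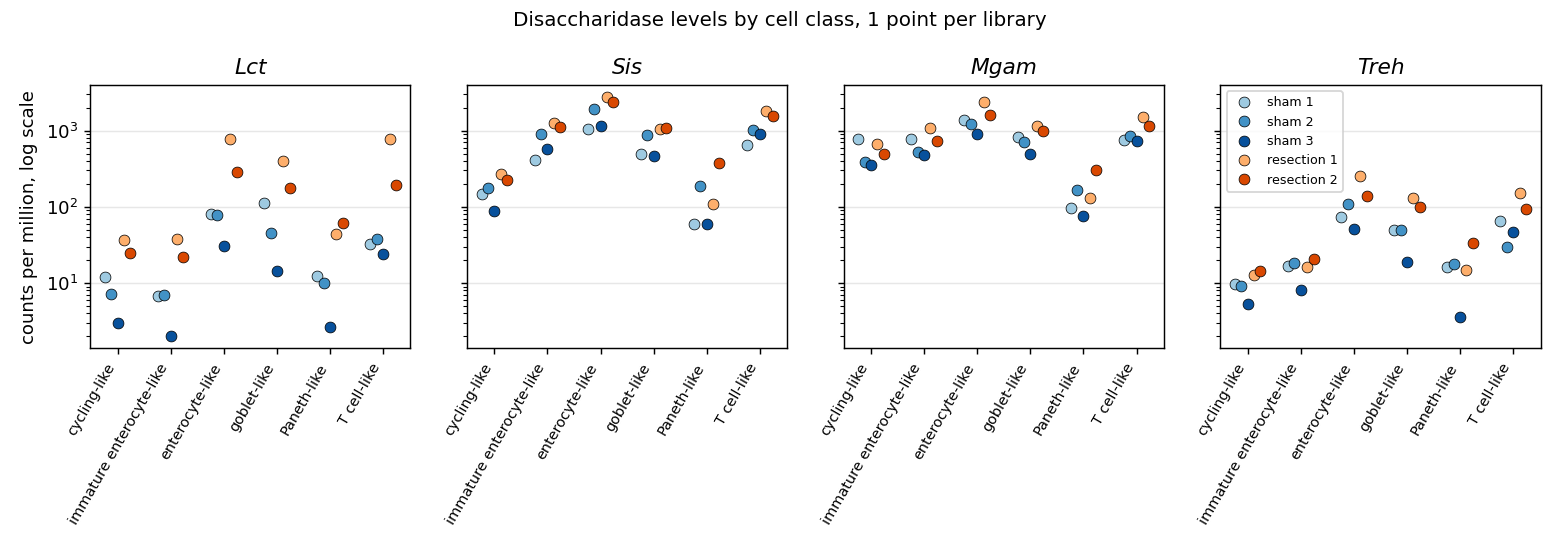
CPM of each disaccharidase (y axis, log scale) in 6 cell classes (x axis), with 1 point per library, blue for sham and orange for resection. Sis and Mgam reach 910 to 2771 CPM in enterocyte-like cells, Mgam alone stays above 350 CPM in cycling-like cells, and Lct in resection libraries lies above every sham library in each class.

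The 4 genes differed in their levels in the less mature classes. In cycling-like cells, which carry mitosis markers such as Mki67 and Top2a, Mgam was at 28.7% to 56.8% of its enterocyte-like level of the same library. Sis was at only 7.67% to 14.3% there, Lct at 4.66% to 15.0% and Treh at 4.94% to 13.0%. The Mgam range lay above those of the other 3 genes. In immature enterocyte-like cells, which express Gsdmc genes of the lower villus, Sis reached 40.0% to 49.0% and Mgam 43.8% to 55.4% of the enterocyte-like level. Lct, at 4.83% to 8.90%, and Treh, at 6.34% to 22.7% of theirs, lay below both ranges in every library. T cell-like droplets, which should lack these genes, held higher levels, with Mgam at 53.8% to 80.1% and Sis at 52.8% to 78.3% of the enterocyte-like level. The levels of all 4 genes in both classes lay below those of the T cell-like droplets of the same library, except Mgam in sham 1 in both classes. Whether the levels in these 2 classes are the cells' own RNA was therefore not settled by the level.

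The make-up of the disaccharidase pool also differed between classes. In cycling-like cells Mgam gave 65.2% to 82.2% of the UMIs of the 4 genes and Sis 15.6% to 30.1%. In enterocyte-like cells Mgam gave 36.2% to 53.7% and Sis 40.3% to 58.2%. The Mgam ranges of the 2 classes did not overlap, and in T cell-like droplets Mgam gave 35.6% to 50.0%, below every cycling-like value. Lct gave 3.12%, 2.33% and 1.41% of the pool in enterocyte-like cells of sham 1 to 3, and 12.7% and 6.44% in resection 1 and 2, whose shares lay above all sham shares. Exact 95% binomial intervals on these Lct shares, which cover counting error only, ran from 1.25% to 3.48% over the sham libraries and from 6.28% to 12.9% over the resection libraries. Treh gave 2.35% to 3.29% in sham and 3.19% to 4.12% in resection libraries, which overlapped. How many other genes would separate the groups when set against these UMIs was not counted.

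**Figure D2:**
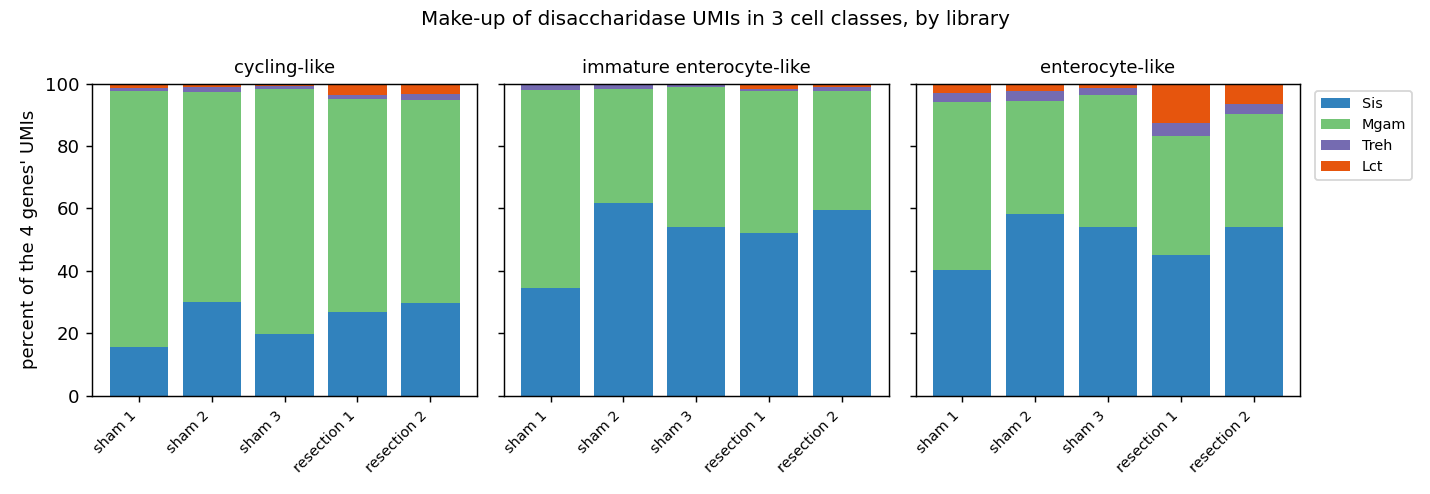
Percent of the UMIs of the 4 disaccharidases (y axis) that came from each gene, by library (x axis), in cycling-like, immature enterocyte-like and enterocyte-like cells. Mgam makes up 65.2% to 82.2% of the cycling-like bars, and Lct is widest in the enterocyte-like bars of resection 1 (12.7%) and resection 2 (6.44%).

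Goblet-like and Paneth-like cells, secretory classes that are not known as sources of these enzymes, also carried UMIs of all 4 genes. In goblet-like cells the level was 37.7% to 47.6% of the enterocyte-like level for Sis, 48.1% to 62.8% for Mgam, 37.4% to 70.6% for Treh and 48.0% to 62.3% for Lct in 4 libraries. In the fifth, sham 1, the goblet-like level of Lct was 141% of the enterocyte-like level, from 34 UMIs in 48 cells. In Paneth-like cells the levels were lower, at 3.96% to 15.7% for Sis and 5.51% to 18.9% for Mgam. T cell-like droplets carried Lct at 40.3% to 98.0% and Treh at 27.4% to 94.1% of the enterocyte-like level. Those droplets also carried the summed enterocyte markers at 17577 to 47440 CPM, against 22789 to 70545 CPM in enterocyte-like cells. A level in a secretory class at or below that of T cell-like droplets is not told apart here from background. The part of captured cell pairs in those droplets was not tested. A lower level therefore does not show that a class lacks expression. Sis and Mgam in goblet-like and Paneth-like cells were at or below the T cell-like level in every library, with 1 exception, Mgam in goblet-like cells of sham 1. In CPM, Lct and Treh were below it in Paneth-like cells of every library. Paneth-like cells were deeper, and in mean UMIs per droplet this did not hold for Lct in sham 1 (0.263 against 0.167). Nor did it hold for Treh in sham 1 (0.344 against 0.333) and sham 2 (0.214 against 0.129), while it held in the other libraries. In goblet-like cells Lct was above the T cell-like level in sham 1 (141% against 40.3%) and sham 2 (58.7% against 48.2%). Treh was above it in sham 2 (45.3% against 27.4%) and resection 2 (70.6% against 66.5%). The T cell-like levels of sham 1 to 3 rested on only 2, 10 and 4 Lct UMIs and 4, 8 and 8 Treh UMIs. They came from 12, 62 and 28 droplets, so the order of the classes is uncertain there for Lct and Treh.

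How the genes follow maturity was measured with a score, the mean log level of 10 villus-tip genes (such as Ada, Nt5e and Krt20) minus that of 10 lower-villus genes (such as Reg3b, Reg3g and Gsdmc4), in the 14323 enterocyte-like and immature enterocyte-like cells. No disaccharidase is in the score. All 4 genes rose from the lowest to the highest tertile, the cells of each library being split by score into 3 equal parts, by very unequal amounts. With edgeR's quasi-likelihood test, libraries as blocks and Benjamini-Hochberg adjustment over 9471 genes, the log2 fold change was 4.09 ± 0.18 (SE) for Lct (adjusted p = 6.1e-08) and 3.01 ± 0.19 for Treh (adjusted p = 4.1e-07). It was 0.97 ± 0.13 for Mgam (adjusted p = 5.6e-05) and 0.82 ± 0.15 for Sis (adjusted p = 0.000504). Of all genes tested, 64.2% passed this test and 32.2% passed it upward, so it is the sizes, more than the calls, that set the members apart from each other. Without libraries as blocks, Sis was no longer called (0.72, adjusted p = 0.140).

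The steps of the rise differed. From the lower to the middle tertile all 4 genes rose, Lct by 2.72 ± 0.15, Treh by 1.98 ± 0.18, Sis by 0.85 ± 0.07 and Mgam by 0.83 ± 0.08 on the log2 scale (adjusted p from 4.6e-08 to 1.5e-06), where 55.5% of genes passed and 28.9% passed upward. From the middle to the upper tertile only Lct (1.51 ± 0.12, adjusted p = 2.0e-07) and Treh (1.13 ± 0.07, adjusted p = 1.9e-08) passed, where 37.2% of genes passed and 19.5% passed upward. Sis stood at -0.03 ± 0.11 (adjusted p = 0.842) and Mgam at 0.14 ± 0.10 (adjusted p = 0.272) in that step. These 2 values join groups that went opposite ways with tertiles cut within each library, by the ratio of upper to middle unscaled level. For Sis the ratio was 1.134, 1.067 and 1.165 in sham 1 to 3 and 0.806 and 0.628 in resection 1 and 2. For Mgam it was 1.164, 1.234 and 1.296 in sham and 0.780 and 0.892 in resection libraries. The upper tertile began at a score of -1.30, -1.33 and -1.40 in sham 1 to 3. It began at -0.95 and -0.99 in resection 1 and 2. The step thus spans unlike scores in the groups, and the part of this in the opposite ways was not tested. In the shared bins below, Sis and Mgam were lower in bin 10 than at their peak in all 5 libraries. Between 11.5% and 23.3% of a library's cells lay within 0.05 score units of a boundary between tertiles, so the tertiles are ranges of a continuum and not cell types.

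**Figure D3:**
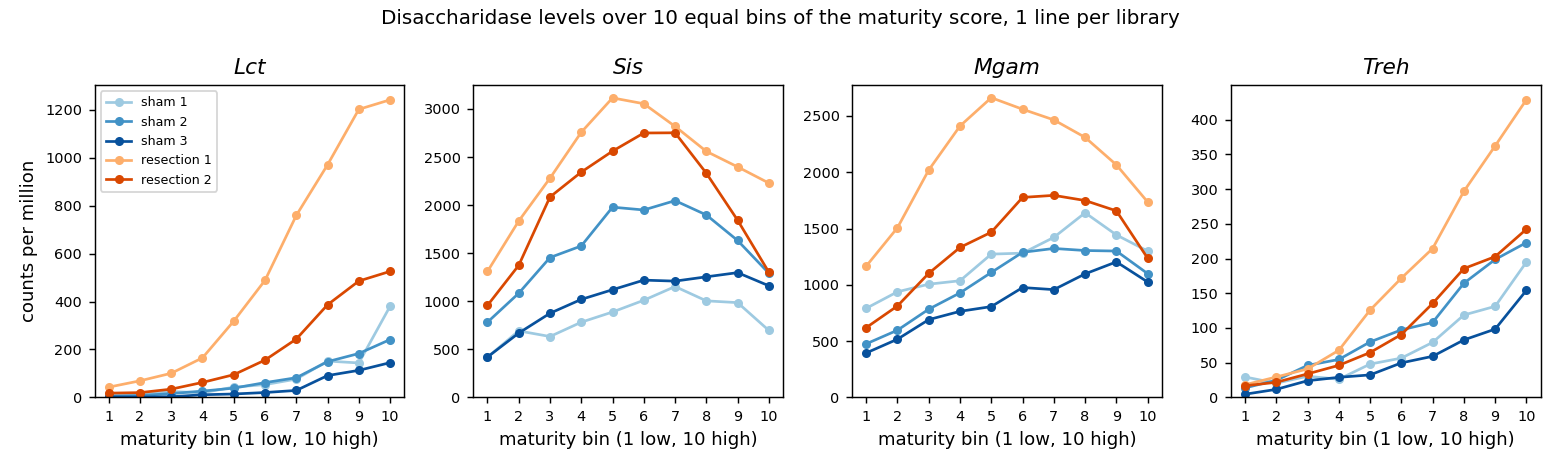
CPM of each disaccharidase (y axis, linear) over 10 equal bins of the maturity score pooled over libraries (x axis, 1 lowest, 10 highest), 1 line per library. Lct and Treh are highest in bin 10 in all 5 libraries, while Sis and Mgam peak between bins 5 and 9 and are lower in bin 10.

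A finer division into 10 bins of equal cell number, with boundaries shared by all libraries, showed the shape. Lct was highest in the last bin in all 5 libraries, going from 10.7, 4.71 and 1.93 CPM in the first bin of sham 1 to 3 to 381, 242 and 145 in the last. Those first-bin levels rested on 4, 12 and 5 UMIs. In resection 1 and 2 it went from 42.9 and 17.9 CPM to 1242 and 526. Treh was also highest in the last bin in all 5 libraries, at 154 to 223 CPM in sham and 429 and 242 in resection libraries, against 4.62 to 29.5 in the first bin over all libraries. Sis peaked in bin 7 in sham 1, sham 2 and resection 2, in bin 9 in sham 3 and in bin 5 in resection 1. In the last bin Sis had come down from 2752 to 1302 CPM in resection 2 and from 2047 to 1291 in sham 2. Mgam peaked between bins 5 and 9 and was also lower in the last bin in all 5 libraries, for example 1736 CPM after a peak of 2662 in resection 1. The fewest cells in any bin were the 21 of sham 1 in the last.

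Resection against sham was compared first in enterocyte-like cells, on sums scaled by the TMM method and tested with edgeR over 10172 genes. Both resection libraries lay above the sham range for all 4 disaccharidases, as they did for 9.99% of genes, while they lay below it for 7.9%. None passed the adjusted threshold of 0.05, which 0% of genes passed, while 4.87% had an unadjusted p under 0.05, Lct and Treh among them. DESeq2, with 61 genes called, called Lct alone of the 4 (adjusted p = 3.6e-06).

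Lct differed most. Its TMM-scaled level was 68.0, 87.4 and 32.7 CPM in sham 1 to 3 and 720 and 301 in resection 1 and 2. The lower resection library was thus above the highest sham library by more than the whole sham range. The log2 fold change was 3.03 ± 0.52 (SE), with an adjusted p of 0.316 by edgeR's quasi-likelihood test. It was 2.27 without resection 1 and 3.52 without resection 2, again not called. Comparing resection 1 with sham 1 gave a log2 difference of 3.39, and resection 2 with the mean log2 level of sham 2 and sham 3 gave 2.47, so the direction was the same inside both library sets. Other features of these cells moved with the groups, the summed 8 immature enterocyte markers being at 4882 to 6320 CPM in sham and 2394 to 3448 in resection libraries, and Fabp6 lower in resection libraries as given above. Their part in the Lct difference was not tested.

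The sham libraries lay closer to the resection libraries for the 2 abundant enzymes. Sis stood at 881, 2179 and 1255 TMM-scaled CPM in sham 1 to 3 and at 2552 and 2520 in resection 1 and 2. Sham 2 came close to the resection libraries while sham 1 and sham 3 lay at under 1300. The log2 fold change of Sis was 0.82 ± 0.43 (edgeR adjusted p = 0.999). Mgam stood at 1172, 1356 and 985 CPM in sham and 2173 and 1700 in resection libraries, a log2 fold change of 0.73 ± 0.33 (edgeR adjusted p = 0.999). For both genes the difference between groups was not separable from the spread between libraries. Treh stood at 62.5, 123 and 54.6 CPM in sham and 234 and 149 in resection libraries. Its log2 fold change was 1.26 ± 0.41 (edgeR adjusted p = 0.883), with sham 2 nearest to the resection libraries.

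**Figure D4:**
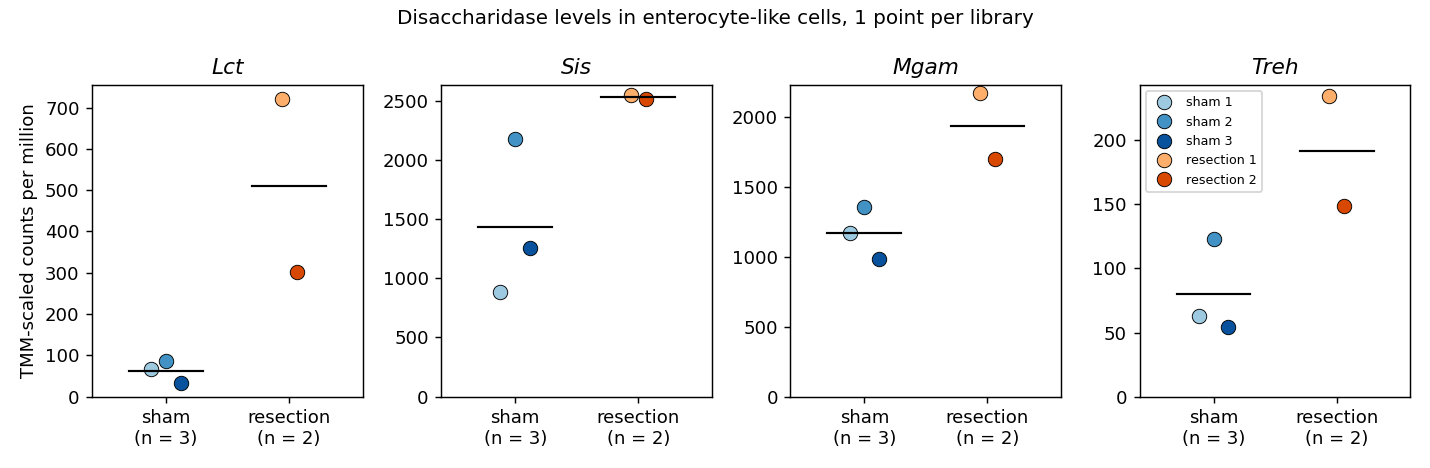
TMM-scaled CPM (y axis, linear, from 0) of each disaccharidase in enterocyte-like cells, 1 point per library, with the group mean as a line (sham, n = 3, resection, n = 2). Lct lies at 32.7 to 87.4 in sham and at 301 and 720 in resection libraries, while Sis in sham 2 (2179) comes close to both resection libraries (2552 and 2520).

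The genes were also compared by the share of enterocyte-like cells with at least 1 UMI. Each cell was thinned to 2000 UMIs, so that depth is equal, and no cell was shallower. A Lct UMI was then present in 12.4%, 13.9% and 6.37% of cells in sham 1 to 3 and in 62.3% and 39.2% in resection 1 and 2. Unthinned, the shares were 24.6%, 22.1% and 14.8% in sham and 79.2% and 56.8% in resection libraries. For Treh the thinned shares were 13.0%, 20.7% and 10.7% in sham and 38.2% and 25.9% in resection libraries. Sis (84.1% to 95.1%) and Mgam (81.5% to 94.6%) were present in most cells of every library. Exact permutation of the group names (two-sided, 10 arrangements) gave p = 0.1 for Lct and Treh, 0.2 for Mgam and 0.4 for Sis (adjusted over the 4, 0.2, 0.2, 0.267 and 0.4), and 0.1 is the smallest p this design allows. For comparison, T cell-like droplets, whose median depths ran from 3971 to 6441 UMIs against 4030 to 5972 in enterocyte-like cells, showed a Lct UMI in a thinned 6.02% to 6.59% in sham and in 66.3% and 26.6% in resection libraries. The Lct share in T cell-like droplets of sham 3 (6.30%) was about that of its enterocyte-like cells (6.37%). Before thinning only 4 of those 28 droplets held a Lct UMI. That of resection 1, from 19 droplets, was above its enterocyte-like share. Those droplets also carried enterocyte markers, so this measure cannot tell background from expression. In Paneth-like cells, of median depth 6136 to 19794 UMIs, the thinned Lct share was 0.465% to 2.96% in sham and 8.74% and 10.9% in resection libraries.

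Relative to Sis in the same cells, the groups did not overlap for Lct and overlapped for Mgam and Treh. The log2 ratio of Lct to Sis UMIs was -3.69, -4.64 and -5.26 in sham 1 to 3 and -1.82 and -3.07 in resection 1 and 2, a difference of 2.09 (exact permutation p = 0.2, adjusted over 3 ratios 0.6). Both resection values lay above all sham values, but the distance between resection 1 and 2 was itself 1.24. The share of all genes whose ratio to Sis separates the groups was not counted. The ratio of Treh to Sis differed by 0.40 (exact permutation p = 0.4) and that of Mgam to Sis by -0.19 (exact permutation p = 0.9), with overlapping groups in both.

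In each of the other epithelial classes the Lct level of either resection library exceeded all sham levels. The log2 fold change was 2.43 ± 0.45 in immature enterocyte-like cells and 2.40 ± 0.43 in cycling-like cells. It was 2.40 ± 0.58 among goblet-like and 2.35 ± 0.43 among Paneth-like cells. The smallest edgeR adjusted p was 0.0691, in Paneth-like cells, where 0.0304% of genes passed and no disaccharidase did. The share of genes with both resection libraries above all sham libraries was 6.33%, 5.67%, 8.38% and 7.02% in these classes. In cycling-like cells Lct rested on few UMIs, with 5, 11 and 11 in sham 1 to 3 and 87 and 90 in resection 1 and 2. In T cell-like droplets Lct also stood higher in resection libraries, at 766 and 194 CPM against 23.7 to 37.7 in sham. The sham levels there rested on 2, 10 and 4 UMIs in sham 1 to 3. How much of the Lct counts outside enterocytes comes from free RNA was not tested.

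On TMM-scaled levels Treh was above the sham range in goblet-like (1.51 ± 0.41), cycling-like (0.85 ± 0.38) and Paneth-like cells (0.60 ± 0.43), and its groups overlapped in immature enterocyte-like cells (0.33 ± 0.39). In Paneth-like cells the separation of Treh and Mgam depended on the scaling, since unscaled levels overlapped. Sis stood between 0.76 and 0.97 in these 4 classes, with overlapping groups in Paneth-like cells and, on the scaled levels alone, in goblet-like cells. Mgam had its smallest difference, 0.20 ± 0.36, in cycling-like cells, where sham 1 at 700 TMM-scaled CPM lay above both resection libraries (607 and 540). No edgeR adjusted p of these 3 genes was below 0.95 in the 4 classes.

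**Figure D5:**
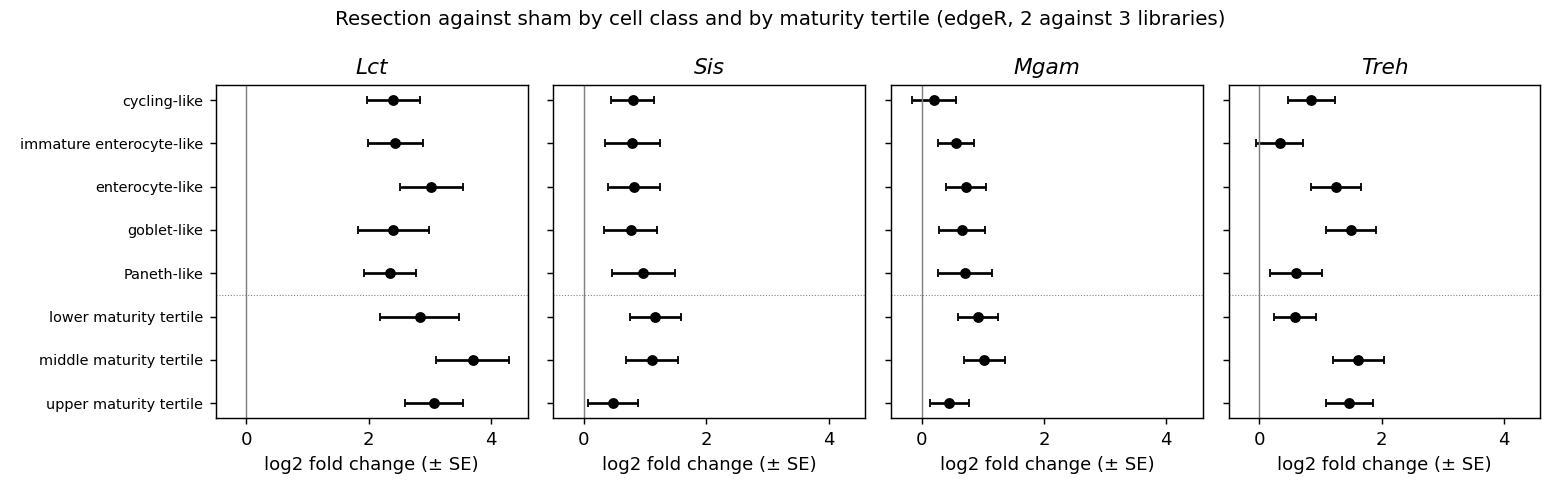
Log2 fold change of resection against sham (x axis) with its standard error (bars) for each disaccharidase in 5 cell classes and, below the dotted line, in the 3 tertiles of the maturity score within each library, from edgeR on 2 against 3 libraries. Lct lies between 2.35 and 3.70 throughout, and Sis and Mgam are lowest among the 3 tertiles in the upper one (0.48 and 0.45).

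Resection libraries also held more cells of high maturity score. The 2 highest of the 10 shared bins took 29.97% and 28.1% of the scored cells of resection 1 and 2, and 6.84%, 8.96% and 6.50% of those of sham 1 to 3. Several genes of the score differed with surgery themselves. In enterocyte-like cells 7 of the 10 villus-tip genes were higher on average and 3 lower. Their median log2 fold change was 0.57, with a range from -0.54 to 3.51, and Ada stood at 2.58 ± 0.57. All 10 lower-villus genes were lower on average, by a median of 0.65. Of these, Gsdmc2, Gsdmc3, Gsdmc4, Lypd8, Ccl25 and Dmbt1 are also among the 8 immature enterocyte markers used to name classes. The score and the immature class are therefore not separate measures of maturity. No gene of the score passed the edgeR test. The score is thus not independent of the surgery, and maturity and surgery cannot be fully told apart with it.

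In bins of like score, which need not mean like maturity, Lct and Sis were higher in the resection libraries. In all 10 shared bins both resection levels exceeded all sham levels for Lct, with a ratio of group means from 3.46 (bin 10) to 8.00 (bin 7), and for Sis, with a ratio from 1.62 (bin 9) to 2.27 (bin 4). For Mgam this held in 7 bins. For Treh it held in only 4, and the ratio of its group means went from 1.10 in bin 1 to 1.76 in bin 10, with a highest value of 2.13 in bin 7. The share of all genes that separate the groups was not counted in these bins. All bins come from the same libraries, so they are not separate observations. With boundaries of the tertiles shared by all libraries, the log2 fold change of Lct was 2.42 ± 0.62, 2.78 ± 0.52 and 2.46 ± 0.41 in the lower, middle and upper tertile, against 3.03 in all enterocyte-like cells. That of Treh was 0.22 ± 0.34, 0.82 ± 0.41 and 1.07 ± 0.35. Sis stood at 0.96, 0.97 and 0.62 and Mgam at 0.76, 0.84 and 0.45 in the same order. No disaccharidase passed the edgeR test there, where 0%, 0% and 0.0124% of genes did.

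With tertiles taken within each library, both resection levels exceeded all sham levels for all 4 genes in the lower and middle tertile, and for all but Sis in the upper, where 6.91%, 12.1% and 13.3% of genes did. By these tertiles, the upper of which began at higher scores in resection libraries, the difference with surgery depended on tertile for 2 genes. Sis was 1.17 ± 0.41 higher on the log2 scale in the lower tertile and 0.48 ± 0.41 in the upper, and the test of the difference gave -0.67 ± 0.17 (edgeR adjusted p = 0.0267). In resection 1 and 2 the upper tertile held 1.21 and 0.99 times the Sis level of the lower tertile, against 1.67, 1.80 and 2.09 times in sham 1 to 3. Treh went the other way, from 0.59 ± 0.34 to 1.47 ± 0.39, a difference of 0.84 ± 0.23 (edgeR adjusted p = 0.0445). Its upper tertile held 11.2 and 7.35 times the level of the lower tertile in resection 1 and 2, against 3.72, 5.95 and 6.24 times in sham libraries. The test called 5.02% of genes. The difference was -0.43 ± 0.17 for Mgam (adjusted p = 0.199) and 0.15 ± 0.30 for Lct (adjusted p = 0.865).

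These calls were not stable. With shared boundaries Sis gave -0.34 (edgeR adjusted p = 0.416) and Treh 0.82 (adjusted p = 0.0467). The Sis call was lost without sham 1 (adjusted p = 0.0769), sham 3 (0.105) or resection 2 (0.229), and the Treh call without sham 1 (0.201), sham 2 (0.0825), sham 3 (0.105) or resection 1 (0.406). Between the middle and the upper tertile, a comparison added after the data were seen, the difference in the surgery effect was -0.65 ± 0.11 for Sis (edgeR adjusted p = 0.000653), -0.56 ± 0.10 for Mgam (0.00203) and -0.59 ± 0.16 for Lct (0.0405), while Treh stood at -0.15 ± 0.12 (0.711), where 2.51% of genes were called. With shared boundaries none of the 4 passed that comparison.

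The steep rise of Lct with maturity was present in all 5 libraries. In the upper tertile the Lct level was 7.31, 16.0 and 29.5 times that of the lower tertile in sham 1 to 3 and 14.4 and 14.8 times in resection 1 and 2. The lower-tertile levels of sham 1 to 3 rested on only 32, 46 and 10 Lct UMIs, so the sizes of their ratios are uncertain.

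Hexose transport and fructose metabolism, the steps that follow the disaccharidases, were counted from a list of 17 genes. In enterocyte-like cells 14 were tested, none passed the edgeR threshold, 4 had both resection levels over the sham range and 1 had both under it, against 9.99% and 7.9% of all genes. The median log2 fold change was 0.61, against -0.02 over all genes tested. The glucose transporter gene of the basolateral side, Slc2a2, stood at 7.65, 10.4 and 5.20 TMM-scaled CPM in sham 1 to 3 and at 175 and 88.7 in resection 1 and 2, with a log2 fold change of 4.09 ± 0.42 (edgeR adjusted p = 0.134). Hk2, a hexokinase gene, was lower in both resection libraries (-3.04 ± 0.84, adjusted p = 0.685), and Slc2a7, a minor hexose transporter gene, was higher (0.97 ± 0.35, adjusted p = 0.959). Slc2a2 was the list gene that passed in the upper tertile (3.70 ± 0.34, adjusted p = 0.0196), where 0.0218% of genes did.

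Of 17 other brush-border hydrolases, mostly peptidases, 16 were tested in enterocyte-like cells and none passed. Both resection libraries lay above the sham range for 6 and below it for 1, with a median log2 fold change of 0.38, where 9.99% and 7.9% of all genes did so. The 3 with the lowest p were Enpp3 (3.51 ± 0.82), which is also in the score, Mme, the neprilysin gene (1.70 ± 0.40), and Asah2, the neutral ceramidase gene (1.12 ± 0.27), with edgeR adjusted p from 0.510 to 0.521. Of 19 transcription factors of enterocytes 16 were tested, none passed, 3 lay above and 1 below the sham range, against the same shares of all genes, and the median was -0.02. Foxa1 was lower (-0.91 ± 0.26), and Creb3l3 (0.95 ± 0.32) and Mlxipl (0.84 ± 0.35), whose protein responds to glucose, were higher, with adjusted p from 0.703 to 0.999. The factors of the printed motifs, Cdx1, Cdx2, Gata4, Gata5 and Gata6, had overlapping groups. They are named for the motifs, after their values were seen, and Cdx2 as an example stood at 138, 149 and 117 TMM-scaled CPM in sham and 98.9 and 148 in resection libraries.

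Along maturity the lists separated. In the upper against the lower tertile 12 of 13 tested hexose genes and all 15 tested hydrolases that are not in the score rose, with median log2 fold changes of 1.21 and 2.09, while of 15 tested factors 4 rose and 3 fell (median 0.13). Of all genes tested 32.2% rose in that comparison and 64.2% passed in either direction. The test of the surgery effect in the upper minus the lower tertile called 3 hexose genes, all with negative values, named after these were seen. They were Slc5a1, the sodium-coupled glucose transporter gene (-0.94 ± 0.16, edgeR adjusted p = 0.00232), Hk2 (-2.22 ± 0.43, 0.00482) and Tkfc, of fructose breakdown (-0.83 ± 0.15, 0.00343). Hk2 was lower in resection libraries, as given above, so its negative value need not mean a smaller difference. In the other lists that test called Foxa1 (-1.04, adjusted p = 0.0162), Gata6 (0.98, 0.0175) and Alpi, the intestinal alkaline phosphatase gene (0.60, 0.0364), where 5.02% of all genes were called.

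Across the 25 sums of 5 epithelial classes in 5 libraries, the members were most alike as Lct with Treh (Pearson r = 0.92) and Sis with Mgam (0.86), and least as Lct with Mgam (0.64), as a description. Among 4580 genes with at least 20 CPM on average, the 3 most like Lct were Susd2 (0.97), Apoa4 (0.96) and Mme (0.96), and the 3 most like Treh were Mme (0.99), Ace (0.98) and Pdzk1 (0.98). Sis was most like Khk (0.98), the ketohexokinase gene of fructose use, Cyp4f14 (0.97) and Spink1 (0.96), and among the genes most like Mgam were Rnf128 (0.98) and Ogdh (0.98). The sums share libraries, depth and class, so these values describe pattern alone.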

How the data were processed

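The authors deposited, for each library, a matrix of raw UMI counts made with 10x 3′ v2 chemistry and Cell Ranger (version given only with a question mark), per the labels. The build is GRCm38 per the submitters' processing notes. Total counts per library were 11749000 to 41281643 after 65 rows with a repeated symbol were left out.

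Cells under 500 genes or over 20% mitochondrial UMIs were dropped, 720 likely doublets (3.80%) were removed by Scrublet score, and the rest were clustered (scanpy 1.11.5, Leiden resolution 1.0, 2000 variable genes, 30 components, no batch correction). Clusters were named from marker lists with a scoring rule revised after the data were seen, so other names are possible. UMIs were summed per library and class, and tested with edgeR 4.0.16 in R 4.3.3 (TMM, filterByExpr, two-sided quasi-likelihood test, Benjamini-Hochberg over all genes), checked on simulated data. The text names the 4 members, and per gene list the 3 genes with the lowest p in enterocyte-like cells, and the genes whose levels followed each member most closely. DESeq2 1.42.0, other scalings, filters, clusterings and left-out libraries were alternatives. The members and lists were chosen with earlier results of these data known. A few genes that these rules would name are not reported here.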

Additional observations from a re-analysis of the deposited data

Results flagged for a closer look

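The difference of the resection effect between the upper and the lower maturity tertile was past the edgeR threshold for Sis, at -0.67 on the log2 scale, and for Treh, at 0.84, in opposite directions. The higher share of high-score cells in resection libraries moves with both, and its part in them was not tested.

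Lct was counted in T cell-like droplets, which entered no test between groups and served only for comparison. It stood at 766.5 CPM in resection 1 and 193.6 CPM in resection 2, above the 23.7 to 37.7 CPM of the sham libraries. The sham levels rested on 2, 10 and 4 UMIs in sham 1 to 3. The same droplets carried the 10 enterocyte markers at 17577 to 47440 CPM beside T cell markers at 6294 to 12544 CPM. The part of free RNA or of captured cell pairs in these counts was not tested.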

How the results depend on the processing

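For Lct in enterocyte-like cells (3.03), 18 of 21 alternatives left the result not called, and it was called by DESeq2 (3.03), without a filter on low counts (3.05) and with the replicate block (2.59, adjusted p = 0.000708). Treh was called without the filter (1.27). The same replicate number pairs only 2 sham with 2 resection libraries (r = 0.59 and 0.18 between deviations) and no label says that it marks a pair. Sham 3 with resection 2, of unlike numbers, stood at 0.54. The deviations of the 2 resection libraries are exact opposites, so these r cannot show pairing. The block raised the calls from 0 to 159, and without the filter they were 226, with 61 by DESeq2, 9 with the library set as a term, 3 without resection 2 and 5 with no limit on mitochondrial share. Sis and Mgam were not called under any alternative, and all 4 stayed higher under every one. With the doublets kept or the mitochondrial limit off, sham 1 had only 21 or 24 cells named enterocyte-like, so sums over all epithelial cells, where Lct stood at 3.03, were added after seeing the data.

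The rise of Sis with maturity was not called without the library as a block (0.72). The Lct difference between tertiles changed sign with pooled tertiles (-0.024), between upper and middle tertile (-0.59, pooled -0.27) and over left-out libraries (-0.29 to 0.39). The Sis difference was not called with pooled tertiles (-0.34, upper against middle -0.39), with a range of -0.86 to -0.54 over left-out libraries. The Treh difference was not called with the score without Reg3b and Reg3g (0.67) or for pooled upper against middle (0.25), changed sign for upper against middle (-0.15), and ran from 0.50 to 1.13 over left-out libraries. Mgam was called for upper against middle (-0.56). The ratio of Mgam to Sis ran from -0.43 to 0.12 over left-out libraries. The causes were not tested. With 3 and 2 libraries, exact tests could not reach 0.05.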
